A study of Homo sapiens with 7 samples.

Results

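The proteasome subunit genes are the 42 genes named PSMA, PSMB, PSMC, PSMD, PSME and PSMF1 that encode the core particle, the regulatory particle and the activators and inhibitor of the proteasome. The members were chosen by name, and 37 of the 42 had a probe set annotated to that gene alone, out of 19775 genes on the array with such a probe set. Where a gene had several, the one with the highest mean log2 value on 7 arrays stands for it. PSMA6, PSMC5, PSMD7, PSMD13 and PSME2 had none and have no value here. The cells were HSC-3, an established human line from an oral squamous cell carcinoma. The heated groups were exposed to 42 °C or 44 °C for 90 min and collected 0, 6 or 12 h after return to 37 °C, and the control stayed at 37 °C. Each of these 7 conditions has 1 whole-genome expression array (Affymetrix Human Genome U133 Plus 2.0), so each difference compares a pair of arrays and no p-value can be given.

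The proteasome is the protease that degrades proteins tagged with ubiquitin. Its core particle is a barrel of stacked alpha and beta rings, in which certain beta subunits carry the catalytic sites. The regulatory particle caps the barrel, where ATPases unfold the substrate and thread it into the core and non-ATPase subunits bind ubiquitin chains and remove them. After heat shock, misfolded proteins are refolded by chaperones or passed to this machine. In many cells a loss of proteasome activity raises the transcription of its subunit genes together, through the factor NFE2L1 acting at antioxidant response elements.

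The arrays differed in overall level. Over 20902 probe sets at or above a floor of 21.4 intensity units, the median log2 difference from the control stood at -0.13, 0.24 and 0.16 after 42 °C, and at 0.40, -0.07 and -0.35 after 44 °C, in the order 0, 6 and 12 h that is used for every set of values here. A difference is a log2 value after this median shift was removed, unless another scale is named. A value read from an array is an intensity as deposited and is relative to the RNA labelled, so less of a transcript per cell and fewer cells that make it cannot be told apart. A gene was counted as higher or lower only where it passed 1.5-fold the same way as deposited, after the median shift and after quantile normalization. Different probe sets of a bright gene disagreed with an SD of 0.19 to 0.28 log2 units per comparison, the only measure of technical spread in these data. HSPA6, a heat-inducible chaperone, read 12566, 262 and 18.9 at 42 °C, 5143, 7596 and 8788 at 44 °C and 4.82 in the control. It was high directly after 42 °C and at all 3 times after 44 °C. The control and 42 °C, 12 h values of HSPA6 did not reach the floor. The epithelial markers KRT5, KRT14, EPCAM, CDH1 and SFN read between 1073 and 17368, with summed levels of 36436 to 48347 in heated cells and 37357 in the control. By contrast 5 of 11 fibroblast, leukocyte and endothelial markers (LUM, PTPRC, LYZ, VWF and CDH5) were below the floor on every array. The summed level of the 4 fibroblast markers ran from 228 to 389 in heated cells, against 197 in the control, most of it COL1A1. COL1A1 was called higher at 42 °C, 0 h (0.97) and at all 3 times at 44 °C (0.72, 1.21 and 1.32). The leukocyte marker CD14 was called higher at 44 °C, 6 and 12 h, where it read 40.9 and 43.5, against 1.92 in the control, which is below the floor. The summed level of the 4 leukocyte markers ran from 36.2 to 72.5 in heated cells, against 34.3 in the control, and that of the 3 endothelial markers from 37.1 to 63.2, against 53.2. The part of these markers in the results was not tested.

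Most proteasome genes stayed within 1.5-fold of the control through heat and recovery, 29 to 36 of 37 on each heated array after the median shift, 36 or 37 after quantile normalization and 21 to 37 as deposited. Of 1700 very bright genes (mean at least 64 times the floor), 1330 to 1658 were within 1.5-fold on each heated array after the shift. After quantile normalization 1507 to 1656 of them were, and as deposited 1047 to 1636. Both lows after the shift, 29 members and 1330 very bright genes, were at 44 °C, 12 h. Staying within 1.5-fold was thus not particular to the members. No member passed 2-fold in any of 9 comparisons (6 with the control and 3 between temperatures), while 17.9% of 14973 genes at or above the floor on any array and 3.24% of the very bright genes passed it in at least 1. At 1.5-fold 4 members passed somewhere, PSMB9, PSMD3, PSME1 and PSMF1, which is 10.8% of 37, against 47% of all genes and 16.6% of very bright genes. The set is bright: 36 of the 37 members had a mean of at least 16 times the floor, PSMB10 being the exception, and their deposited intensities lay between 136 and 10104. Very bright genes, among which are 30 of the members, are therefore the nearer background for most of the set. The called genes PSMB9 and PSMD3 are not among them. Of bright genes (mean at least 16 times the floor), 33.4% passed 1.5-fold and 8.71% passed 2-fold in at least 1 comparison.

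Against the control, 0, 0 and 1 of 37 members were higher at 42 °C (0, 6 and 12 h), where 4.16%, 6.58% and 4.88% of all genes and 1%, 1.76% and 1.29% of very bright genes were higher. At 44 °C 1, 0 and 1 members were higher, against 9.3%, 5.83% and 4.96% of all genes and 2.12%, 1.82% and 2.06% of very bright genes. No member was lower on any heated array, where the share of all genes ran over 9.2%, 6.33% and 5.07% at 42 °C and 3.31%, 9.58% and 10.8% at 44 °C, and that of very bright genes over 1.94%, 0.412% and 0.294% and 0.765%, 2.71% and 3.76%. At 2-fold the counts of members were 0 in both directions, against 1.46%, 1.51% and 0.968% of all genes higher and 3.11%, 1.95% and 1.36% lower at 42 °C. At 44 °C these shares were 2.12%, 1.49% and 1.7% higher and 0.675%, 2.62% and 3.53% lower. The members' median difference stood at 0.12, 0.04 and 0.10 at 42 °C and 0.15, 0.29 and 0.33 at 44 °C. For very bright genes it stood at 0.09, -0.01 and 0.05 and 0.09, 0.25 and 0.30, so at 44 °C both medians lay above 0 by like amounts. After quantile normalization the members' medians were 0.03, 0.03 and 0.07 at 42 °C and 0.09, 0.08 and 0.09 at 44 °C. The members lay close together, and the interquartile range of their differences was 0.16 to 0.31 log2 units on the 6 heated arrays, against 0.25 to 0.51 for very bright genes. Over the 7 arrays a member spanned a median of 0.53 log2 units from its lowest to its highest value, and a very bright gene 0.62.

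**Figure D1:**
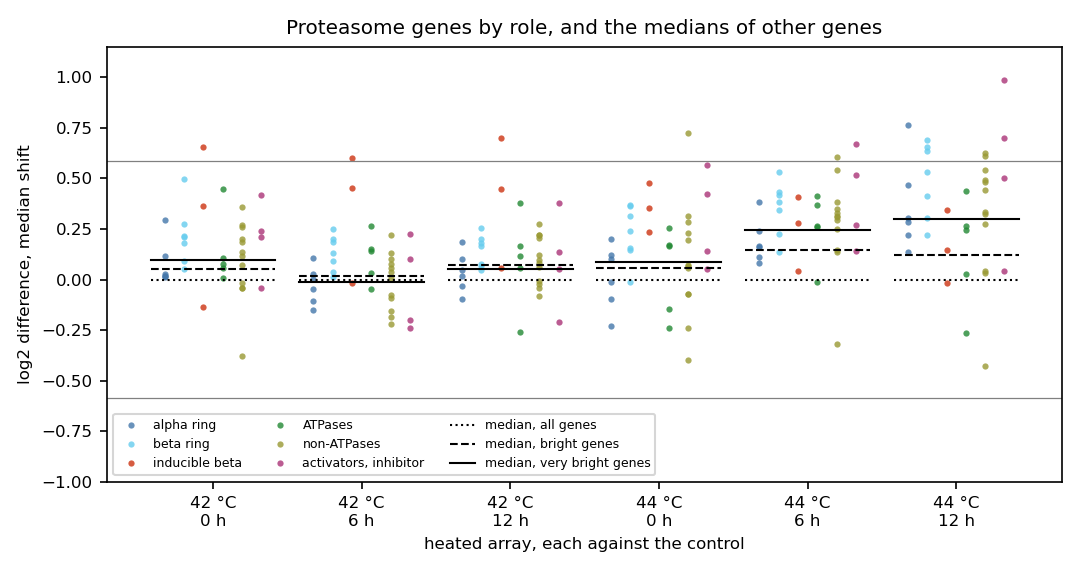
Each point is 1 proteasome gene on 1 heated array, as its log2 difference from the control after the median shift, coloured by role. Black lines give the medians of all, bright and very bright genes and grey lines mark 1.5-fold; most points lie between the grey lines, and at 44 °C, 6 and 12 h they shift upward with the very bright genes.

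In the core particle, the alpha subunits PSMA1 to PSMA7 form the outer rings and the gate of the barrel, and none of their 6 measured genes passed 1.5-fold under all scalings. The alpha ring median stood at 0.02, -0.02 and 0.03 at 42 °C and 0.05, 0.16 and 0.29 at 44 °C, and -0.10, -0.03 and 0.00 and -0.03, -0.10 and -0.03 after quantile normalization. PSMA4 read 3648, 4671 and 4564 at 42 °C, 4871, 4056 and 3403 at 44 °C and 3947 in the control. Its values were highest at 44 °C, 0 h and 42 °C, 6 and 12 h, the arrays with the highest overall level, and after the shift the highest and lowest differed by 0.23 log2 units. PSMA7 read 5842, 6659.8 and 5927 at 42 °C, 7496, 5873 and 6973 at 44 °C and 5228 in the control. Its 44 °C, 12 h value was the highest after the shift, at 0.76 (1.70-fold), which was 0.34 after quantile normalization and 0.33 in its other probe set. PSMA1 had the lowest alpha difference at 42 °C, 12 h, where it read 6508 against 6220.0 in the control (-0.10), and PSMA5 the highest, with 3325 against 2609.7 (0.19). At 44 °C, 12 h PSMA1 read 6747 and PSMA5 2526, differences of 0.47 and 0.30. PSMA2 and PSMA3 stayed between -0.05 and 0.38 on all 6 heated arrays.

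The constitutive beta ring, PSMB1 to PSMB7, holds the catalytic subunits PSMB5 (chymotrypsin-like), PSMB6 (caspase-like) and PSMB7 (trypsin-like). After the median shift, all 7 genes were above the control on 5 of the 6 heated arrays and 6 of 7 at 44 °C, 0 h. Of 1700 very bright genes, 1196, 804 and 1051 were above it at 42 °C and 1015, 1303 and 1284 at 44 °C. After quantile normalization 5 to 7 beta genes were above it on each, against 788 to 962 very bright genes. None passed 1.5-fold under all scalings. The beta ring median stood at 0.21, 0.13 and 0.17 at 42 °C and 0.24, 0.38 and 0.53 at 44 °C, and 0.07, 0.14 and 0.14 and 0.19, 0.11 and 0.14 after quantile normalization. PSMB3, a structural subunit, read 7284, 7949.8 and 7544 at 42 °C, 9261, 7253 and 7161 at 44 °C and 5648 in the control. It was the highest beta gene at 42 °C and at 44 °C after 12 h, every heated array lay above the control, and the differences were 0.50, 0.25 and 0.26 at 42 °C and 0.31, 0.43 and 0.69 at 44 °C. PSMB3, PSMB4, PSMB7, PSMD14 and PSME1 were the 5 members above the control on all 6 heated arrays under all 3 scalings (13.5% of 37, against 11.4% of very bright genes), and no member was below it on all 6. These 6 comparisons share 1 control array.

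Of the catalytic subunits, PSMB5 read 3497, 4273 and 4146 at 42 °C, 4846, 3669 and 3193 at 44 °C and 3298 in the control. After the shift its differences from the control were at most 0.30 and its span over the 7 arrays after quantile normalization was 0.14 log2 units, the smallest of all members. PSMB6 read 3111, 3887 and 3697 at 42 °C, 5457, 4394 and 3905 at 44 °C and 3201 in the control. Its 42 °C values stayed within 0.09 of the control while all 3 values at 44 °C were higher, at 0.37, 0.53 and 0.64. PSMB7 read 6838, 8163 and 8213 at 42 °C, 10104, 8236 and 8010.2 at 44 °C and 6485 in the control, with 0.21, 0.09 and 0.18 at 42 °C and 0.24, 0.42 and 0.65 at 44 °C. PSMB1, the lowest beta gene at 44 °C, 12 h, read 5189 there against 5674 in the control (0.22), and its other probe set gave 0.58. PSMB2 gave 0.53 at that time and a dimmer probe set of the same gene -0.57, so its direction there depends on the probe set.

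**Figure D2:**
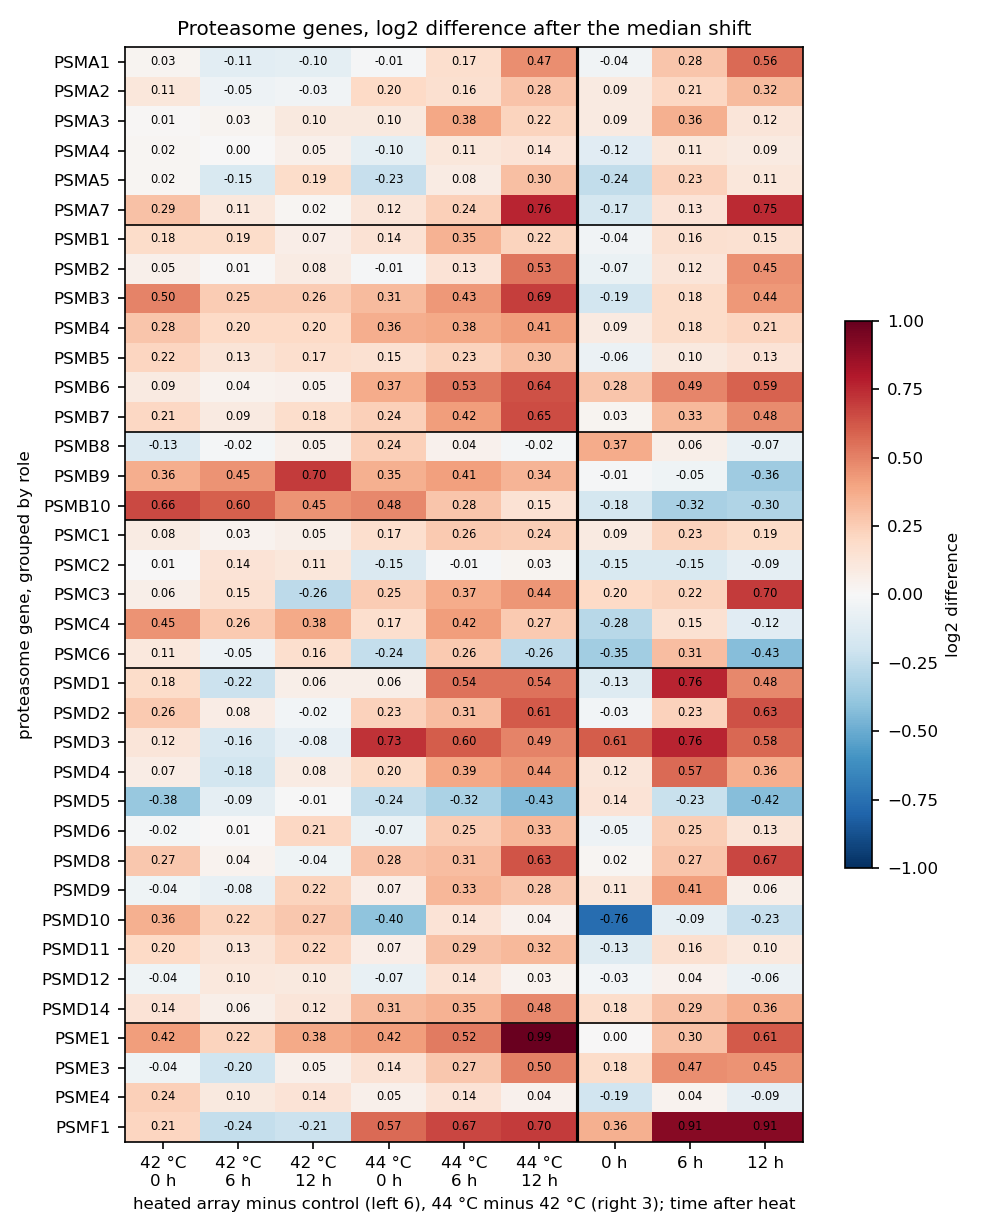
Rows are the 37 proteasome genes grouped by role, columns are the 6 heated arrays against the control and the 3 comparisons of 44 °C with 42 °C. Colour and number give the log2 difference after the median shift; most cells are pale, and the strongest are PSME1 at 44 °C, 12 h (0.99) and PSMF1 at 44 °C against 42 °C (0.91).

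Of the inducible beta subunits, PSMB9 and PSMB10 stood further above the control at 42 °C than their constitutive partners, and PSMB8 did not. PSMB8, PSMB9 and PSMB10 replace PSMB5, PSMB6 and PSMB7 in the immunoproteasome, which is known for making peptides for MHC class I and is induced by interferon gamma. PSMB9 rose 1.62-fold at 42 °C, 12 h (log2 difference 0.70, with 0.86 as deposited and 0.64 after quantile normalization), the 1 member called there. It read 721, 995 and 1116 at 42 °C, 1036, 775 and 612 at 44 °C and 615 in the control. At 42 °C it was higher at each later time, and at 44 °C it was lower at each later time as deposited, while after the shift the 44 °C differences were 0.35, 0.41 and 0.34. Its partner PSMB6 differed by 0.05 at 42 °C, 12 h.

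PSMB10, the dimmest member, read 225, 280.1 and 239 at 42 °C, 287, 180.1 and 136 at 44 °C and 156 in the control. It stood 1.58-fold, 1.52-fold and 1.36-fold above the control at 42 °C after 0, 6 and 12 h and 1.39-fold at 44 °C, 0 h, but passed under all scalings at none of these: as deposited it was 0.52 at 42 °C, 0 h, and after quantile normalization 0.57 at 6 h. Its partner PSMB7 differed by 0.21 and 0.09 on those arrays. PSMB8 read 508, 714 and 710.2 at 42 °C, 950.4, 599 and 473 at 44 °C and 611 in the control. It stayed within 0.24 of the control on every heated array and was below it at 42 °C, 0 h (-0.13), while PSMB9 and PSMB10 were above it there. Each of the 3 has 1 single-gene probe set.

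TAP1, which encodes a peptide transporter of the MHC class I pathway, is a neighbour of PSMB9 on the chromosome. TAP1 read 704, 993 and 1276 at 42 °C, 934, 812 and 629.7 at 44 °C and 644 in the control. It was also called higher at 42 °C, 12 h (0.82), as were 4.88% of all genes. Its 44 °C values, too, were lower at each later time as deposited, while after the shift its 44 °C differences were 0.13, 0.41 and 0.32. TAP1 is also a neighbour of PSMB8, which was not called on any array. TAP2, the other neighbour of PSMB8, differed by -0.03, 0.17 and -0.15 at 42 °C and was not called. EMC9, a neighbour of PSME1, was called higher at 42 °C, 12 h as well (0.69). FITM1, the other neighbour of PSME1, was called lower there (-0.69), where it read 14.2, below the floor, against 34.5 in the control. It was also called lower at 44 °C, 0 and 6 h, again with values below the floor. HLA-DMB, the neighbour of PSMB9 on the other side, encodes a chain of a class II peptide exchange factor. HLA-DMB read 37.4, 32.3 and 45.1 at 42 °C, 76.4, 36.8 and 49.9 at 44 °C and 60.5 in the control. Its 42 °C differences were -0.56, -1.15 and -0.59, below the control and called lower at 6 h, so the neighbours on either side of PSMB9 lay in opposite directions at 42 °C. All of these neighbours were looked at after the values of PSMB9 were seen. The 250 bases before the start of PSMB9 (chr6:32853942-32854191, plus strand, RefSeq, GRCh38.p14) are shown because they lie on the side of TAP1, and carry a match to the antioxidant response element core TGACNNNGC in capitals, on the opposite strand at positions -148 to -140 from the start:
PSMB9: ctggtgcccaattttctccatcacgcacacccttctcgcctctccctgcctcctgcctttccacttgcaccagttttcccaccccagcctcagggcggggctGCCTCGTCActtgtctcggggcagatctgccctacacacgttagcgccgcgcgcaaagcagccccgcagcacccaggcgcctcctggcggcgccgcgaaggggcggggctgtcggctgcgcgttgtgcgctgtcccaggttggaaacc

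The regulatory particle ATPases PSMC1 to PSMC6 form the ring that unfolds substrates, and none of 5 measured genes passed 1.5-fold under all scalings on any heated array. Their median stood at 0.08, 0.14 and 0.11 at 42 °C and 0.17, 0.26 and 0.24 at 44 °C, and -0.04, 0.12 and 0.07 and 0.10, 0.01 and -0.09 after quantile normalization. At 44 °C, 12 h it was thus above 0 after the shift and below it after quantile normalization and as deposited (-0.11). PSMC4 read 1261, 1439 and 1478 at 42 °C, 1506, 1286 and 957 at 44 °C and 1014 in the control. It was the highest ATPase gene at 42 °C, 12 h (0.38), and all 3 of its 42 °C values lay above the control. PSMC3 read 3212, 4435 and 3166 at 42 °C, 5327, 4151 and 3600.5 at 44 °C and 3383 in the control. It was the lowest ATPase gene at 42 °C, 12 h (-0.26) and the highest at 44 °C, 12 h (0.44). PSMC6 read 4142, 4826 and 5289 at 42 °C, 4714, 4813 and 2757 at 44 °C and 4216 in the control. It was lowest at 44 °C, 12 h, with -0.26 after the shift, -0.56 after quantile normalization and -0.61 as deposited, short of 1.5-fold under the first 2. PSMC1 and PSMC2 lay between -0.15 and 0.26 on all heated arrays.

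Among the non-ATPase subunits, PSMD3, a scaffold subunit of the regulatory particle lid, rose after 44 °C. At 0 h it rose 1.65-fold over the control (0.73, with 1.13 as deposited and 0.72 after quantile normalization) and was the 1 member called on that array. PSMD3 read 965, 1034 and 1029.8 at 42 °C, 2129, 1409 and 1078 at 44 °C and 975 in the control. The 42 °C arrays lay at 0.12, -0.16 and -0.08 and the 44 °C arrays at 0.73, 0.60 and 0.49, smaller at each later time. It has 1 single-gene probe set. The other 11 measured non-ATPase genes did not pass on any array, and the class median stood at 0.13, 0.02 and 0.09 at 42 °C and 0.07, 0.31 and 0.39 at 44 °C, and 0.05, -0.02 and 0.01 and 0.03, 0.08 and 0.12 after quantile normalization. The promoter of PSMD3 (chr17:39980557-39980806, plus strand, RefSeq, GRCh38.p14) is shown because the gene was called in 2 comparisons, and holds a match to the same core close to the start, at positions -37 to -29, in capitals, with a second match past the start at positions 33 to 41 that is not shown:
PSMD3: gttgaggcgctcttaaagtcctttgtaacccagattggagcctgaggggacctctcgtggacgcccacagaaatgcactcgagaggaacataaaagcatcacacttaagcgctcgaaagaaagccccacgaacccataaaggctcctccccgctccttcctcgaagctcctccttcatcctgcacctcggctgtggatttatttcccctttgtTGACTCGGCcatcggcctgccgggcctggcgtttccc

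PSMD5 and PSMD10 are assembly chaperones of the regulatory particle rather than subunits of the finished particle. PSMD5 read 922, 1458 and 1463 at 42 °C, 1469.9, 1002 and 765 at 44 °C and 1313 in the control. It was the lowest non-ATPase gene at 44 °C, 12 h (-0.43) and below the control on all 6 heated arrays after the shift, though 42 °C, 6 and 12 h and 44 °C, 0 h lay above it as deposited. PSMD10, also known as gankyrin, read 3009.9, 3548 and 3477 at 42 °C, 2573, 2686 and 2077 at 44 °C and 2572 in the control. It was the highest non-ATPase gene at 42 °C, 12 h (0.27), and its lowest value after the shift was at 44 °C, 0 h (-0.40). PSMD8, a lid subunit, was the highest at 44 °C, 12 h, with 3267 against 2694 in the control (0.63, and 0.28 as deposited). PSMD1, the large scaffold of the base, gave 0.54 and 0.54 at 44 °C, 6 and 12 h, but its other probe set gave -0.02 and -0.09. PSMD4, a ubiquitin receptor, gave 0.39 and 0.44 at those times with 2 other bright probe sets between 0.31 and 0.58. PSMD14, the deubiquitinase of the lid, ran from 0.06 at 42 °C, 6 h up to 0.48 at 44 °C, 12 h. In their chosen probe sets PSMD2, PSMD6, PSMD9, PSMD11 and PSMD12 lay between -0.08 and 0.61 on all heated arrays. A second bright probe set of PSMD12 gave 0.47, 0.14 and -0.27 at 42 °C. At 44 °C it gave -0.39, -0.39 and -0.43, so the direction of PSMD12 depends on the probe set. Dimmer probe sets ran from -0.38 to 0.43 for PSMD9 and from -0.42 to 0.02 for PSMD11.

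The activator gene PSME1 showed the largest difference of all members after the median shift, though not as deposited or after quantile normalization, where PSMD3 and PSMF1 reached larger values. PSME1 encodes the alpha subunit of an activator that opens the core in place of the regulatory particle and is induced by interferon gamma. It rose 1.98-fold at 44 °C, 12 h (0.99), which was 0.64 as deposited, 0.73 after quantile normalization and 0.69 when the array was shifted by the very bright genes. PSME1 read 2224, 2523 and 2659 at 42 °C, 3229, 2489 and 2846 at 44 °C and 1828 in the control. Every heated array was above the control, and at 42 °C the differences were 0.42, 0.22 and 0.38. It has 1 single-gene probe set. Its promoter (chr14:24135944-24136193, plus strand, RefSeq, GRCh38.p14), shown because the gene was called, also holds the core, at positions -86 to -78, in capitals:
PSME1: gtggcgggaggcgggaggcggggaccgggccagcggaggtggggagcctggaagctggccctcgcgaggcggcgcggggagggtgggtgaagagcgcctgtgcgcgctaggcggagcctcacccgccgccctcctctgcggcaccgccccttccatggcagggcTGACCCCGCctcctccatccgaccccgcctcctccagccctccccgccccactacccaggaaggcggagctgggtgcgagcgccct

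The gene of the proteasome inhibitor PSMF1 read 1265, 1199 and 1158 at 42 °C, 2343, 1811 and 1529 at 44 °C and 1198 in the control. The 42 °C arrays lay at 0.21, -0.24 and -0.21 and the 44 °C arrays at 0.57, 0.67 and 0.70, and the differences at 44 °C passed 1.5-fold under some scalings and not all. A second bright probe set of PSMF1 gave 0.60, 0.53 and 0.05 at 44 °C, near the first probe set at 0 and 6 h and below it at 12 h. PSME3, which encodes a nuclear activator, differed by 0.14, 0.27 and 0.50 at 44 °C, and its 3 other probe sets gave 0.62, 0.62 and 0.16 at 0 h, so that the size there depends on the probe set. PSME4, the gene of another nuclear activator, was the lowest of these genes at 44 °C, 12 h, with 883 against 1091 in the control (0.04), and stayed between 0.04 and 0.24.

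**Figure D3:**
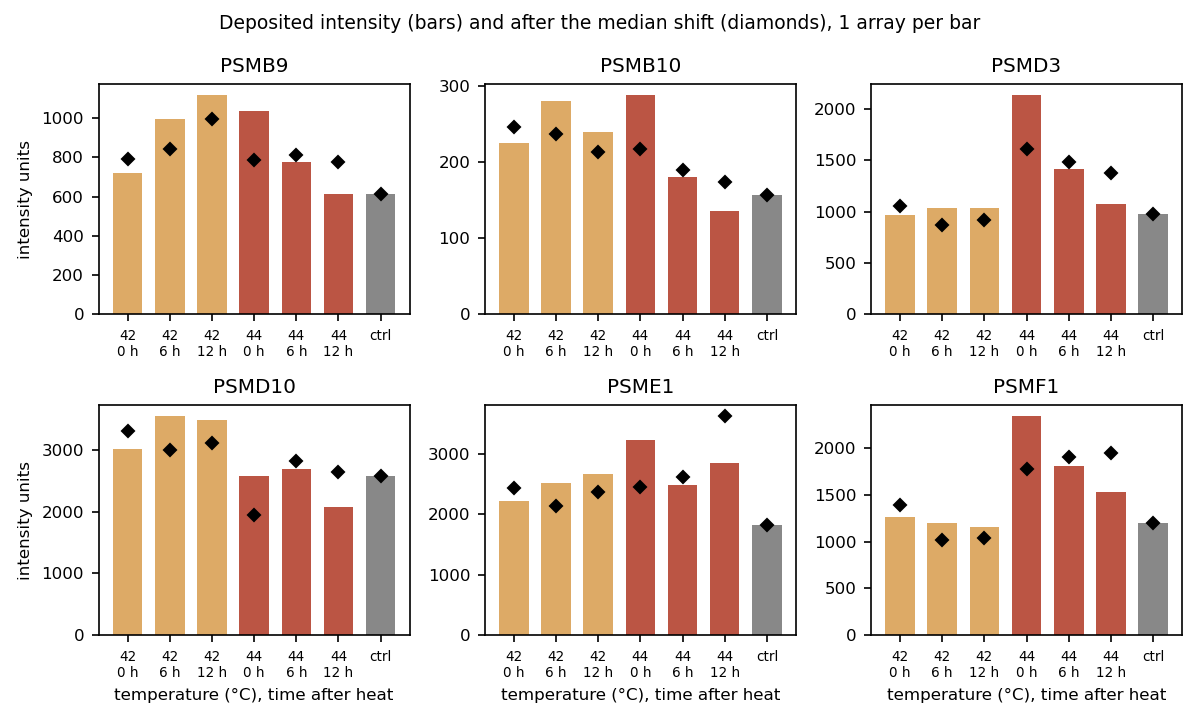
Bars give the deposited intensity of 6 proteasome genes on each of the 7 arrays and diamonds the same value after the median shift; the axes are linear from 0. PSMB9 is highest at 42 °C, 12 h and PSMD3 at 44 °C, 0 h, PSME1 lies above the control on every heated array, and PSMF1 is higher on the 44 °C arrays than on the 42 °C arrays.

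Promoter windows of 37 of the 42 member genes were found in the RefSeq table, all but PSMA7, PSMB1, PSMB6, PSMB7 and PSMD4 and including the 5 genes without an array value (45 windows of 250 bases before and 50 after a start, since some genes have several starts). The antioxidant response element core TGACNNNGC occurred on either strand in 13 of the 45, 28.9%, against 13.3% of 35116 windows of all genes. The 13 genes were PSMA4, PSMB3, PSMB9, PSMC4, PSMC5, PSMD1, PSMD3, PSMD5, PSMD9, PSMD12, PSME1, PSME2 and PSME4, and so include 3 of the 4 genes called in any comparison and also genes that stayed near the control. The heat shock element GAANNTTC occurred in 0 of the 45, against 6.77% of all windows. A match is a string of letters in this window and says nothing of binding.

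Heat at 44 °C was set against 42 °C at the same time to ask whether the stronger heat moved these genes further. PSMD3 was higher at 0 h, with 2129 at 44 °C against 965 at 42 °C (1.52-fold, 0.61), and PSMF1 at 6 h, with 1811 at 44 °C against 1199 at 42 °C (1.88-fold, 0.91). With the mean of all 4 PSMF1 probe sets the PSMF1 difference did not pass under all scalings. These were the only calls, so that 1, 1 and 0 of 37 members were higher at 0, 6 and 12 h, against 10.8%, 5.91% and 5.17% of all genes and 2.29%, 1.18% and 0.706% of very bright genes. No member was lower, where 2.34%, 11.8% and 10.7% of all genes and 0.824%, 4.53% and 5.53% of very bright genes were. At 2-fold no member passed, against 2.9%, 1.68% and 1.76% of all genes higher and 0.608%, 4.45% and 3.59% lower. The members' median stood at -0.03, 0.22 and 0.19, beside 0.00, 0.26 and 0.25 for very bright genes.

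Under all 3 scalings PSMB6, PSMD3 and PSMF1 were higher at 44 °C than at 42 °C at each of the 3 times and PSMD10 was lower at each (8.11% and 2.7% of members, against 11.6% and 7.18% of very bright genes). After the shift PSMD10 differed most at 0 h, with 2573 at 44 °C against 3009.9 at 42 °C (-0.76, and -0.23 as deposited), and its other probe set gave -0.64 at 0 h and 0.11 at 6 h. PSMB6 differed by 0.28, 0.49 and 0.59 and PSMF1 by 0.36, 0.91 and 0.91 at 0, 6 and 12 h. The second bright probe set of PSMF1 gave 0.48, 0.51 and -0.15, so its direction at 12 h depends on the probe set. The inducible PSMB8, PSMB9 and PSMB10 lay below 0 at 12 h (-0.07, -0.36 and -0.30), where all 13 measured constitutive core genes lay between 0.09 and 0.75. This was not particular to the inducible genes: 10 members lay below 0 there, and PSMC6 (-0.43) and PSMD5 (-0.42) were the lowest. The inducible genes are also dimmer than the very bright genes, and the median there was 0.03 for bright and 0.25 for very bright genes. After quantile normalization the constitutive core median there was -0.03, with 6 of 13 genes above 0, and the inducible median -0.20. The difference between the classes was not tested.

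**Figure D4:**
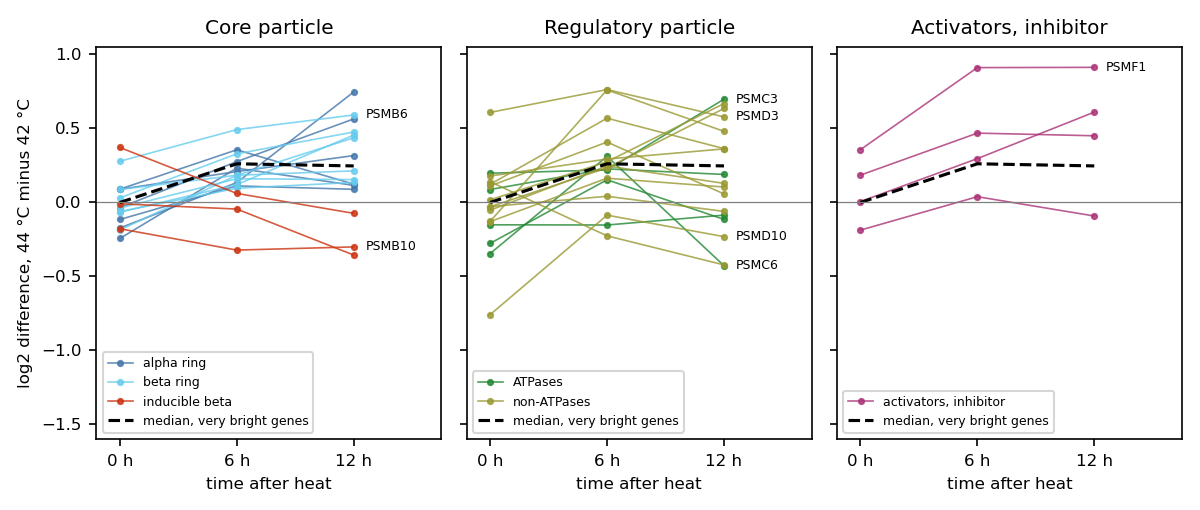
Lines join the log2 differences of 44 °C from 42 °C (median shift) of each proteasome gene at 0, 6 and 12 h after heat, in 3 panels by particle. The dashed line is the median of very bright genes, which most genes follow. PSMD3 and PSMF1 lie above it at every time. The inducible beta genes lie below it at 6 and 12 h, as do others such as PSMC2, PSMD5, PSMD10, PSMD12 and PSME4.

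Genes that act with the proteasome included some with larger differences. In the list of ubiquitin shuttles and unfoldase factors, 1, 1 and 0 of 15 measured genes were higher than the control at 42 °C and 3, 1 and 2 at 44 °C, with none lower. The shares of all genes higher were 4.16%, 6.58% and 4.88% at 42 °C and 9.3%, 5.83% and 4.96% at 44 °C. The shares lower were 9.2%, 6.33% and 5.07% at 42 °C and 3.31%, 9.58% and 10.8% at 44 °C. Counts of 0 or 1 are thus near the background, and those of 3 and 2 rest on few genes and were not tested. ZFAND2A, an arsenite- and heat-inducible protein that binds the regulatory particle, read 2613, 988 and 612 at 42 °C, 856, 595 and 766 at 44 °C and 400.1 in the control, and rose 7.16-fold at 42 °C, 0 h. Its level was highest directly after 42 °C and lower at each later 42 °C time. BAG6, a holdase for mislocalised proteins, rose 1.60-fold, 1.80-fold and 2.16-fold at 44 °C (0, 6 and 12 h), and UBQLN4, a ubiquitin shuttle, 1.57-fold at 44 °C, 0 h. UBA1, the main ubiquitin-activating enzyme, rose 1.74-fold, 1.66-fold and 1.93-fold at 44 °C, the 1 gene called among 3 measured in the ubiquitin list.

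Among 6 assembly factors, 1 was higher on the 42 °C, 12 h array (against 4.88% of all genes) and none on the other heated arrays: PSMG4, an assembly chaperone of the alpha ring, rose 1.59-fold, to 1517 against 851. POMP, the maturation factor of the core, stayed between -0.04 and 0.38. Of 8 further subunits and bound proteins with a value above the floor, SEM1, a small lid subunit, rose 1.97-fold at 44 °C, 6 h, to 3391 against 1811, the 1 of 8 higher there (against 5.83% of all genes). UBE3C, a ubiquitin ligase on the proteasome, fell to 536 at 44 °C, 0 h and 443 at 12 h, against 854 in the control (log2 differences of -1.07 and -0.60), the 1 of 8 lower on each of these arrays (against 3.31% and 10.8% of all genes). In the list on transcription of proteasome genes, MAFG, a small MAF partner, rose 1.73-fold at 44 °C, 6 h, the 1 of 5 measured genes called against the control (against 5.83% of all genes). NFE2L1 itself read 627, 961 and 931 at 42 °C, 1039, 604 and 536 at 44 °C and 667 in the control. It did not pass on any array. Its highest value was at 44 °C, 0 h as deposited, the array with the highest overall level. After the shift it was highest at 42 °C, 12 h (0.32) and 6 h (0.29), with 0.24 at 44 °C, 0 h. NFE2L2, the related factor of the oxidative stress response, was lower at 44 °C than at 42 °C after 6 h (1484 against 3195, -0.79) and after 12 h (1117 against 3419, -1.10). Of all genes 11.8% and 10.7% were lower in these comparisons. NFE2L2 read 2004 in the control. At 6 and 12 h its differences from the control were 0.43 and 0.61 at 42 °C and -0.36 and -0.49 at 44 °C, none of them called.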

How the data were processed

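Gene expression was measured in HSC-3 cells on 7 arrays, 1 per condition, from 5 µg of total RNA each, per the labels' protocols. The deposited values are linear probe set intensities, and the sources used here do not name the algorithm behind them. With 1 array per condition there is no replicate error, and the number of arrays limits the precision. Of 54675 probe sets, 41097 were annotated to 1 gene, 1801 to several and 11777 were not listed; symbols were updated through Entrez IDs with RefSeq (GRCh38.p14).

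Intensities below the pooled median of 21.4 were set to it before log2 was taken. Each array was then shifted by its median log2 difference from the control over 20902 probe sets, and a call needed 1.5-fold (or 2-fold) as deposited, after this shift and after quantile normalization. Bright genes had a mean of at least 16 times the floor (4866 genes), very bright genes 64 times (1700 genes, a limit chosen after the data were seen). Genes were named if called, and otherwise as the highest and lowest of each class at 12 h and as the partners of the inducible subunits; the text adds others by range or where probe sets differ, and these additions were chosen after their values were seen. Members and gene lists were chosen with earlier results of these data known. Python 3.11.15, numpy 2.4.6, pandas 2.3.3 and matplotlib 3.10.9 were used, and the steps were tested on simulated data. Alternatives were other scalings, floors and the mean of all probe sets of a gene.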

Additional observations from a re-analysis of the deposited data

How the results depend on the processing

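Each value stands on 1 array per condition, so no alternative here measures replicate error, and dim members such as PSMB10 are the least certain. No paired analysis was possible because no condition has replicates that could share a number, and for the same reason no array was left out. The 44 °C and 42 °C arrays match by time, but the times are conditions of their own, and no test over the 3 times was run. Omitting the floor or doubling it left all 27 counts and 36 class medians near their values. No member read below 136, above the doubled floor, so neither change could set a member to the floor, and they say little about these genes. No called difference of a member changed sign under any alternative run, though class medians did. A call already required the same direction under 3 scalings, so its sign could not change under those. Most other changes came with the scaling, and the cause was not tested. The counts that changed when 1 scaling was required instead of 3 are given first. As deposited, 2 members were higher at 42 °C, 6 h and 2 at 12 h, 16 at 44 °C, 0 h, 1 at 6 h, and 14 at 44 °C against 42 °C, 0 h. As deposited 2 were lower at 44 °C, 12 h, and 1 and 9 at 44 °C against 42 °C, 6 and 12 h, while 1 passed 2-fold at 44 °C, 0 h and 1 in the 0 h comparison of temperatures. With the median shift alone, 1 was higher at 42 °C, 0 h and 1 at 6 h, 2 at 44 °C, 6 h and 8 at 12 h, and 3 and 7 at 44 °C against 42 °C, 6 and 12 h, with 1 lower at 0 h. With quantile normalization 1 was higher at 42 °C, 0 h, and 3 and 1 at 44 °C against 42 °C, 6 and 12 h, with 1 lower at 0 h and 1 at 12 h. With a shift by bright probe sets 1 was higher at 42 °C, 6 h and 2 at 44 °C against 42 °C, 12 h, and 1 was lower at 44 °C, 12 h and 1 at 44 °C against 42 °C, 0 h. With a shift by very bright genes, an alternative chosen after seeing the data as was the median shift alone, 1 was higher at 42 °C, 6 h and 1 at 44 °C against 42 °C, 12 h, and 1 was lower at 44 °C, 12 h, 1 at 44 °C against 42 °C, 0 h and 3 at 12 h. With the mean of all probe sets of a gene, where all 3 scalings were still required, 1 was higher at 42 °C, 0 h, 2 at 44 °C, 0 h and 0 at 44 °C against 42 °C, 6 h.

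The class medians as deposited were 0.69 (inducible beta), 0.19 (activators and inhibitor), 0.28 (constitutive core) and 0.28 (regulatory particle) at 42 °C, 6 h. In that order of classes they were 0.75, 0.68, 0.54 and 0.47 at 44 °C, 0 h, and -0.20, 0.25, 0.065 and -0.027 at 12 h. For 44 °C against 42 °C they were 0.52, 0.63, 0.49 and 0.50 at 0 h, -0.36, 0.067, -0.13 and -0.082 at 6 h, and -0.81, 0.018, -0.20 and -0.38 at 12 h. With the shift by very bright genes they were 0.031, 0.15, -0.0061 and 0.064 at 44 °C, 6 h, -0.15, 0.30, 0.11 and 0.021 at 12 h, and -0.30, 0.12, -0.075 and -0.025 at 44 °C against 42 °C, 6 h. With quantile normalization the regulatory particle median was 0.049 at 44 °C, 6 h, and the constitutive core median 0.044 at 44 °C, 12 h, and -0.064 and -0.033 at 44 °C against 42 °C, 6 and 12 h. Of the called differences, PSMD3 gave 1.13 at 44 °C, 0 h and 1.14 against 42 °C as deposited. PSME1 at 44 °C, 12 h gave 0.64 as deposited and 0.69 with the shift by very bright genes. PSMF1 at 44 °C against 42 °C, 6 h gave 0.60 as deposited, 0.65 with that shift and 0.59 with the mean of its probe sets.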
